A study of Mus musculus with 31 samples.

Results

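The effect of fluoxetine on the lactating mammary gland was examined within the folic acid (FA) supplemented diet. Of 31 dams in the study, 16 received this diet, and their 16 libraries were chosen by the diet and drug labels. FA diet + fluoxetine and FA diet + saline had 8 dams each. All were C57BL/6J females. They ate a diet with 24 mg/kg FA from 2 weeks before mating to the end of the experiment and were bred from 6 weeks of age on. From embryonic day 13 to lactation day 10, dams received 20 mg/kg fluoxetine hydrochloride or the saline vehicle each day by intraperitoneal injection. Glands were taken on lactation day 10, and polyadenylated RNA of each whole gland was sequenced as 1 library per dam. The other 15 dams ate a breeder diet with 4 mg/kg FA, 7 with fluoxetine and 8 with saline, and serve below only to test whether an effect differed between diets.

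Fluoxetine is a selective serotonin reuptake inhibitor: it blocks the transporter that clears serotonin from the extracellular space. The mammary epithelium makes its own serotonin, which is known to act locally on milk secretion, tight junctions and calcium mobilization. In a whole gland in lactation, secretory epithelium gives most of the RNA, and a thin stroma of fibroblasts, adipocytes, vessels and macrophages, with a layer of contractile myoepithelial cells, gives the rest. FA feeds the one-carbon cycle, which supplies methyl groups for DNA methylation and building blocks for nucleotides.

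The library of dam 3 of FA diet + fluoxetine stood apart from the others. Milk protein transcripts took 17.8% of its counts (95% Wilson interval 17.8 to 17.9, counting error only), against 63.8% to 70.3% in the other 7 fluoxetine-treated dams and 57.3% to 73.3% in the 8 saline-treated dams. Its TMM factor, edgeR's correction for RNA composition, was 2.98, against 0.725 to 1.26 in the other 15 libraries. The 12 fibroblast and collagen markers summed to 1186 CPM (gene counts relative to the TMM-scaled library total) in this library and to 109 to 414 CPM elsewhere. Markers of luminal secretory cells, which define a lactating gland, were counted in every library and summed to 30096 CPM in dam 3 and to 236310 to 484210 CPM elsewhere. These markers include *Csn2*, *Wap* and *Lalba*, at 13860, 14969 and 725 CPM in dam 3, so their sum largely repeats the milk protein share. In dam 11 of FA diet + saline, the ribosomal RNA gene Rn18s-rs5 took 14.1% of the counts, against 0.313% to 2.53% in the others. Total counts ran from 17279592 to 27165214 per library with saline and from 18919573 to 36000439 with fluoxetine. Results are therefore given for the 16 libraries and for 15 libraries without dam 3 of FA diet + fluoxetine.

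**Figure D1:**
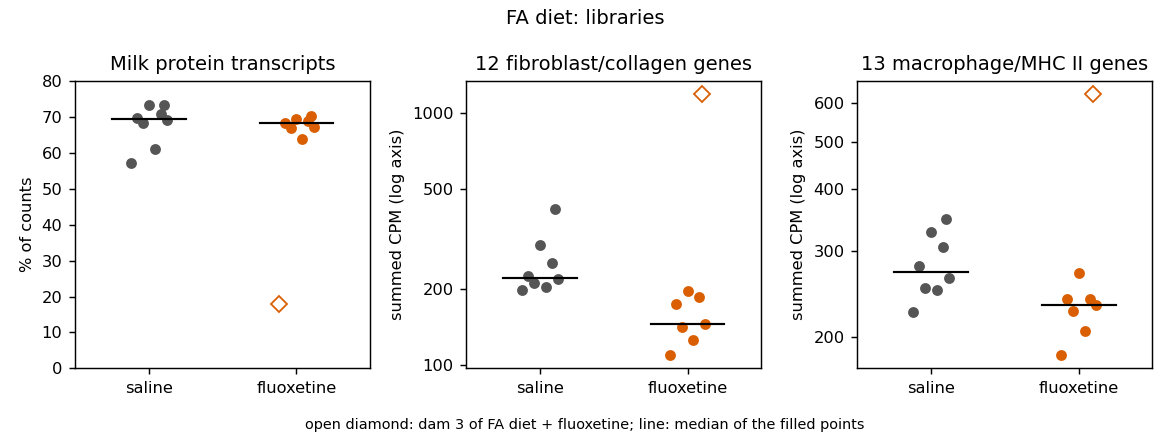
Share of counts from 10 milk protein genes (left, percent), summed CPM of 12 fibroblast and collagen genes (middle) and of 13 macrophage and MHC class II genes (right, both on log axes) in each dam of the FA diet. Points are dams, the open diamond is dam 3 of FA diet + fluoxetine and lines are medians of the filled points. The diamond lies at 17.8% of counts and at 1186 CPM, outside the range of all others.

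At the study's false discovery rate (FDR) of 10%, no gene differed between fluoxetine and saline in either fit. With all 16 libraries, the quasi-likelihood test of edgeR (Benjamini-Hochberg adjusted) called 0 of 12833 genes, and the smallest adjusted p was 0.696. Without adjustment, 913 genes (7.11% of those tested) had p at or under 0.05, of which 698 were higher (5.44%) and 215 lower (1.68%) with fluoxetine. Without dam 3, the same edgeR test called 0 of 12921 genes (smallest adjusted p 0.474), while 731 had unadjusted p ≤ 0.05 (5.66%), 418 higher (3.24%) and 313 lower (2.42%). The common dispersion, the squared coefficient of variation between dams, was 0.172 with dam 3 and 0.119 without it. DESeq2, which replaces outlying counts and so imputes values of dam 3, called 5 genes in 16 libraries and 14 in 15. The likelihood ratio test named in the study's methods called 0 and 1, and limma voom with quality weights called 0 in both. With the dam number as a block, edgeR called 0 of the 16-library genes and 2 of the 15-library genes (0.0155%). These were *Gm50383* (log2 fold change 1.92) and *Pabpn1*, a nuclear poly(A) binding protein (0.76), each with an adjusted p of 0.0879 in that edgeR fit, and both were named after their values were seen. The block also raised the 15-library count at unadjusted p ≤ 0.05 to 1169 genes (9.05%), 661 higher (5.12%) and 508 lower (3.93%), and that at 0.01 or below from 139 (1.08%) to 349 (2.7%). With the block in 16 libraries, 4.65% of genes were higher and 2.59% lower at that p. A gene is therefore called higher or lower below by its values and its unadjusted p, and none of them passed the FDR in the unblocked edgeR fits. Values are from the unblocked fits unless the block is named.

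**Figure D2:**
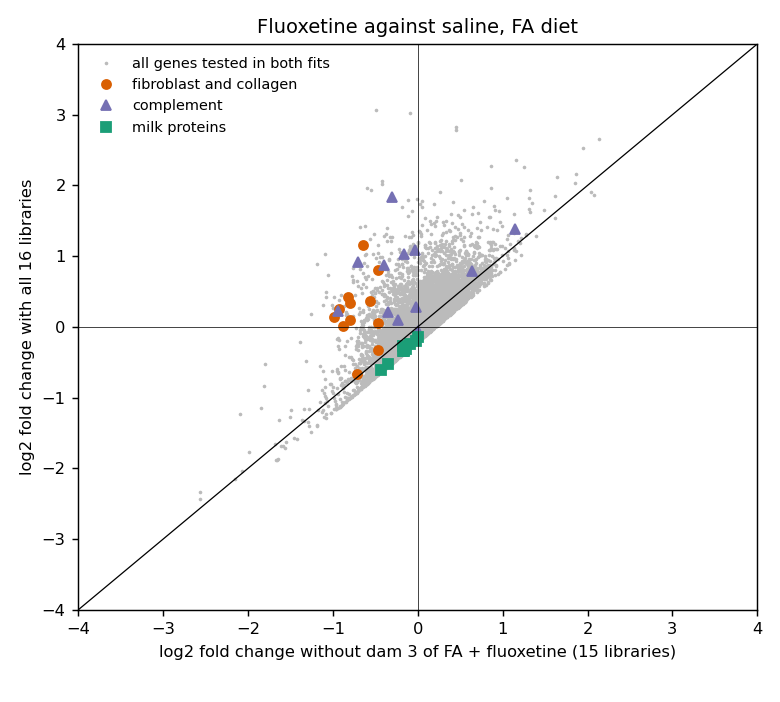
Log2 fold change of fluoxetine against saline in 15 libraries without dam 3 of FA diet + fluoxetine (horizontal axis) and in all 16 libraries (vertical axis) for 12833 genes, with the line of equal values. Most fibroblast and collagen genes (circles) and complement genes (triangles) lie above the line, while milk protein genes (squares) lie below 0 on both axes.

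Fibroblast and collagen markers were lower in the 7 remaining fluoxetine-treated dams. Fibroblasts build the collagen scaffold around ducts and alveoli, and the list holds their fibrillar collagens, the proteoglycans that bind them and the receptor *Pdgfra*. Without dam 3, 12 of 12 fibroblast and collagen markers were lower with fluoxetine and 10 of them had unadjusted p ≤ 0.05 (edgeR), where 2.42% of all genes tested were that low. Their median log2 fold change was -0.76, beside 0.01 for all genes tested. The summed level ran from 109 to 197 CPM (median 145) with fluoxetine and from 198 to 414 CPM (median 222) with saline, so the groups did not overlap. With dam 3 included, 10 of 12 were higher and their median was 0.20 beside 0.04 for all genes. Of all genes there, 1.68% were lower with unadjusted p ≤ 0.05, as was 1 of the 12. That gene was *Sfrp2*, a secreted Wnt modulator of fibroblasts named after its values were seen, which was lower (log2 fold change -0.67 in 16 and -0.72 in 15 libraries). The sign of the 16-library median depended on the fit, since the block gave -0.30 with 11 of 12 lower. In whole glands, fewer fibroblasts and less RNA per fibroblast cannot be told apart.

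*Col1a1* and *Col1a2* encode the chains of type I collagen, the main fibrillar collagen of stroma. *Col1a1* (ENSMUSG00000001506, GRCm39 chromosome 11 from 94827050 to 94843868) ran from 20.4 to 56.8 CPM with saline (median 24.9). In the 7 fluoxetine-treated dams it ran from 9.17 to 21.0 CPM (median 14.5), and in dam 3 it was 171 CPM. Of the 7, 1 dam lay above the lowest saline value. Without dam 3, the *Col1a1* log2 fold change was -0.93 (SE 0.217, unadjusted p = 3.74e-04), and with it 0.25 (SE 0.561), or -0.40 with the block. *Col1a2* (ENSMUSG00000029661, chromosome 6 from 4504814 to 4541555) was 21.2 ± 5.32 CPM (SD, n = 7) with fluoxetine and 37.0 ± 11.9 CPM (SD, n = 8) with saline. Its log2 fold change was -0.80 (SE 0.186, unadjusted p = 2.99e-04). *Col3a1* (ENSMUSG00000026043, chromosome 1 from 45350698 to 45395840), the type III chain that lies with type I in soft tissue, ran from 21.6 to 50.5 CPM with fluoxetine and from 37.4 to 126 CPM with saline. It gave a log2 fold change of -0.88 (SE 0.241). The highest saline value of these 3 collagens came from dam 11, the library rich in ribosomal RNA. Without dam 11 as well, 12 of 12 members stayed lower and 9 had unadjusted p ≤ 0.05, with a median of -0.60. Over 15 fits that each left out 1 of these libraries, 9 to 12 of 12 had such a p. In these fits 1.96% to 3.68% of all genes were lower at that p. All 15 fits lack dam 3, so they cannot test the choice to leave it out, and with it 10 of 12 were higher. The 12 genes were counted in the same libraries and are not separate observations.

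Since the collagens were lower together, the 250 bases before the RefSeq transcription start (GRCm38.p6) are shown for *Col1a2* and *Col3a1*. These are 2 fibrillar chains with a window in the RefSeq table. The motif CCAAT is in capitals (both strands were searched, so ATTGG counts as well). The sequences read 5′ to 3′.
Col1a2, plus strand, chr6:4505368-4505617: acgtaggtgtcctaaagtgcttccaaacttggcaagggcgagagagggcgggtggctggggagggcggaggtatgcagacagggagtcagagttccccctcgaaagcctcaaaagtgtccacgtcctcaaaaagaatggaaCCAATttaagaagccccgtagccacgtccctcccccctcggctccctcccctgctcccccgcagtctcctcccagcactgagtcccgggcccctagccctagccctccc
Col3a1, plus strand, chr1:45311288-45311537: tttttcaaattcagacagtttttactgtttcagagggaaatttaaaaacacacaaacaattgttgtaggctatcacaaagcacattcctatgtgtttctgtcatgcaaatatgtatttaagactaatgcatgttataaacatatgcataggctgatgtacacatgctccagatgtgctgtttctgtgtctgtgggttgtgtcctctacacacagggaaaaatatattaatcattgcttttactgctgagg
The motif occurred once in the *Col1a2* window and not in the *Col3a1* window. Of all 32851 windows, 33.8% held it, as did 1 of the 7 list members with a window.

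Small leucine-rich proteoglycans coat collagen fibrils and set their spacing. Of 8 tested, 8 were lower without dam 3 and 6 had unadjusted p ≤ 0.05 (median log2 fold change -0.55), where 2.42% of all genes were that low. This list and the collagen, basement membrane and crosslinking lists below were drawn up after seeing the data, so their counts are descriptions. *Lum* (lumican, ENSMUSG00000036446, chromosome 10 from 97400990 to 97408577) ran from 4.13 to 8.07 CPM with saline (median 5.06) and from 2.57 to 3.55 CPM in 7 fluoxetine-treated dams (median 2.89), so these groups did not overlap, as was so for 7 lower genes (0.0542% of those tested) in this fit. The *Lum* log2 fold change was -0.82 (SE 0.168, unadjusted p = 7.51e-05, adjusted p = 0.474 by edgeR). Dam 3 alone was at 35.5 CPM, and with it the log2 fold change was 0.42 (SE 0.532), or -0.32 (SE 0.427) with the block. *Optc* (opticin, ENSMUSG00000010311, chromosome 1 from 133824937 to 133836274) was rarer: 0.816 to 1.98 CPM with saline against 0.240 to 0.713 CPM with fluoxetine and 1.29 CPM in dam 3. It was lower with and without dam 3, with log2 fold changes of -1.32 (SE 0.363) and -1.63 (SE 0.338). *Fmod* (fibromodulin) was 4.75 ± 0.845 CPM (SD, n = 8) with saline and 2.81 ± 0.856 CPM (SD, n = 8) with fluoxetine, dam 3 included. In *Fmod*, dam 3 (2.04 CPM) lay with its group, and the log2 fold change was -0.76 (SE 0.207) in 16 and -0.70 (SE 0.203) in 15 libraries.

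Other matrix genes followed in part. Of 28 collagen chains tested, 19 were lower and 10 of these had unadjusted p ≤ 0.05 without dam 3 (median -0.41), where 2.42% of all genes were that low. Of the higher chains, 1 had such a p, and with the block 4 did, where 3.24% and 5.12% of all genes were that high. In the unblocked fit that chain was *Col27a1*, a fibrillar collagen known from cartilage and named after its values were seen (0.85, SE 0.394). Of 15 basement membrane genes, 11 were lower and 4 had unadjusted p ≤ 0.05, against the same 2.42% of all genes. Among them, the laminin chain *Lamc1* (-0.44) did not overlap between groups and the linker *Nid2* was lower in both fits (-0.66 and -0.61), both named after their values were seen. Collagen processing and crosslinking enzymes had 9 of 14 lower and 0 with unadjusted p ≤ 0.05 by edgeR, or 2 with the block. With the block, 3.93% of all genes were lower at that p. The matrix protein *Spon1* (spondin 1) was 0.99 ± 0.353 CPM (SD, n = 7) with fluoxetine and 2.15 ± 0.616 CPM (SD, n = 8) with saline, a log2 fold change of -1.11 (SE 0.271). *Pdgfra*, the growth factor receptor of fibroblasts, had a log2 fold change of -0.99 (SE 0.268).

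**Figure D3:**
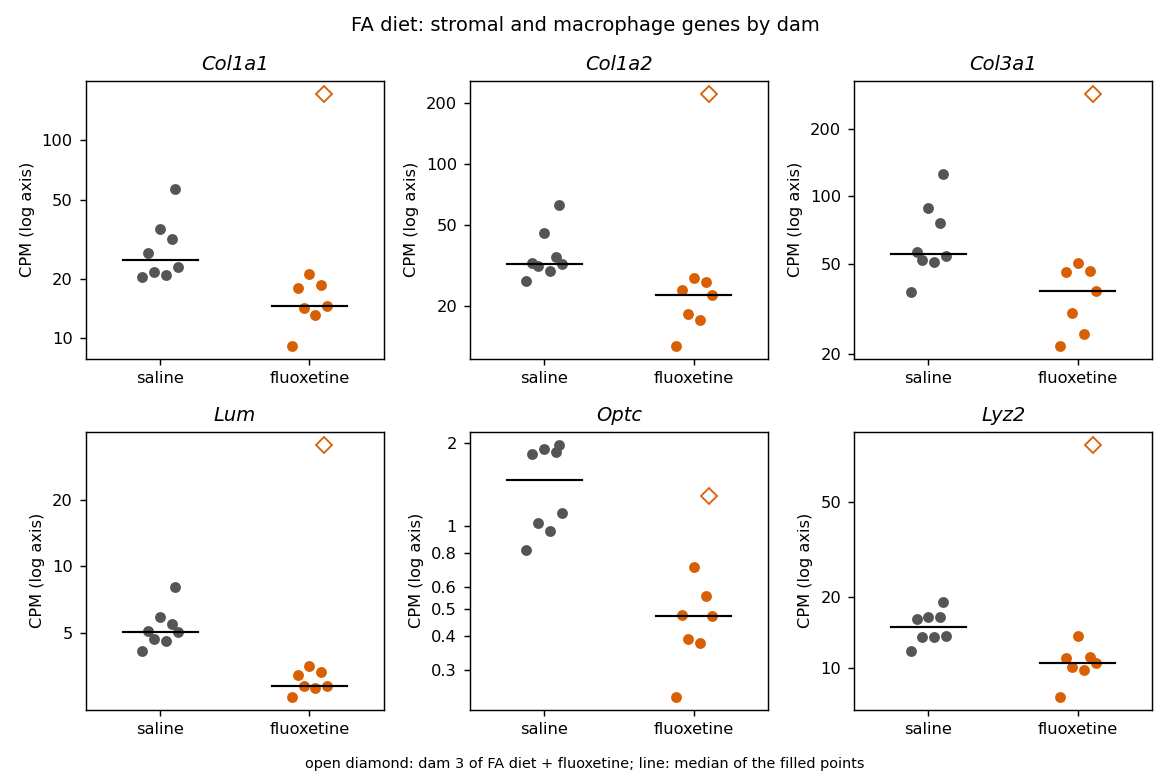
CPM (log axes) of 3 fibrillar collagen genes, the proteoglycan genes Lum and Optc, and the macrophage gene Lyz2 in each dam of the FA diet. Filled points of fluoxetine lie below all saline points for Lum and Optc, and the open diamond, dam 3, lies above all other dams for all but Optc.

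Macrophage and antigen presentation genes were lower as well without dam 3. Of 12 tested, 9 were lower and 5 had unadjusted p ≤ 0.05 (median -0.31), where 2.42% of all genes tested were that low. These 5 were *Lyz2* and the MHC class II genes *H2-Aa*, *H2-Ab1*, *H2-Eb1* and *Cd74*, whose products load and show peptides to T cells. *Lyz2* (lysozyme, ENSMUSG00000069516, chromosome 10 from 117111557 to 117118346) ran from 11.8 to 19.0 CPM with saline (median 14.9) and from 7.57 to 13.7 CPM with fluoxetine (median 10.5). The groups overlapped, and dam 3 was at 87.2 CPM. For *Lyz2*, the log2 fold change without dam 3 was -0.52 (SE 0.136, unadjusted p = 0.00103). *H2-Aa* and *H2-Eb1*, which overlap on chromosome 17 so that reads without strand cannot be assigned between them, had log2 fold changes of -0.33 (SE 0.124) and -0.31 (SE 0.125). The macrophage markers *Csf1r*, *Cd68* and *Adgre1*, named after their values were seen, had log2 fold changes of -0.31, -0.48 and -0.54 without passing an unadjusted p of 0.05. With dam 3, 8 of 12 were higher, and *Mrc1*, the mannose receptor, was higher by 1.73 (SE 0.663). Summed levels of the list ran from 183 to 269 CPM in 7 fluoxetine-treated dams, were 626 CPM in dam 3, and ran from 225 to 347 CPM with saline. In the unblocked edgeR fits, this list and the fibroblast list had negative medians without dam 3 and positive medians with it. With the block and dam 3 included, the macrophage median was -0.145 with 8 of 12 lower. DESeq2 and limma voom also gave negative 16-library log2 fold changes for *Lum*, *Col1a1*, *Col1a2*, *Col3a1*, *Pdgfra*, *Spon1* and *Lyz2*, as did the block, where unblocked edgeR gave positive ones. DESeq2 replaces outlying counts, and the quality weights of limma voom count an outlying library less. Values from DESeq2 and limma voom are therefore not separate from leaving dam 3 out.

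Several genes were lower or higher with fluoxetine whether dam 3 was counted or not. *Serhl* (serine hydrolase-like, ENSMUSG00000058586, chromosome 15 from 82973707 to 83000875) had the smallest p of the 16-library fit. It ran from 9.83 to 16.2 CPM with saline (median 11.4) and from 4.94 to 9.41 CPM with fluoxetine (median 7.17). All 8 fluoxetine-treated dams were below all 8 saline-treated dams, as was so for 0.0234% of genes tested. The log2 fold change was -0.75 (SE 0.155, unadjusted p = 9.98e-05, adjusted p = 0.696 by edgeR), and -0.69 (SE 0.146) without dam 3. *Serhl* overlaps *Rrp7a* and *Gm17206*, and the strand option of the counting is not given in the sources used here. The other genes without overlap in 16 libraries were *Gm15542* and *Cstpp1* (lower) and *Rcc2* and *B3gat3* (higher, 0.0156% of genes), the last 3 named after their values were seen. *Rcc2* and *B3gat3*, an enzyme that starts glycosaminoglycan chains on proteoglycans, were higher by 0.34 (SE 0.105) and 0.36 (SE 0.106) on the log2 scale.

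*Pgm5*, a phosphoglucomutase relative found at muscle and adherens junctions, was 5.17 ± 1.23 CPM (SD, n = 8) with saline and 3.29 ± 0.668 CPM (SD, n = 8) with fluoxetine. All 8 fluoxetine-treated dams lay under the saline median. The *Pgm5* log2 fold change was -0.64 (SE 0.180) in 16 and -0.69 (SE 0.184) in 15 libraries. *Bckdha*, a subunit of the complex that breaks down branched-chain amino acids, was lower, with log2 fold changes of -0.75 (SE 0.208) and -0.64 (SE 0.171). *Dera*, an aldolase of deoxyribose phosphate, gave -0.49 (SE 0.137) and -0.42 (SE 0.127). Both had all fluoxetine-treated dams under the saline median. *Evi2a*, which overlaps *Nf1* and *Evi2* on chromosome 11, was 1.47 ± 0.564 CPM (SD, n = 8) with saline and 0.57 ± 0.232 CPM (SD, n = 8) with fluoxetine (log2 fold change -1.35, SE 0.351). *Gm15542*, a processed pseudogene within *Psmd13* whose reads may come from its parent gene, ran from 1.01 to 1.76 CPM with saline and from 0.47 to 0.96 CPM with fluoxetine. It gave -1.17 (SE 0.279).

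Higher genes included *Fdxr*, the ferredoxin reductase of mitochondria that feeds electrons to steroid and iron-sulfur cluster synthesis. *Fdxr* (ENSMUSG00000018861, chromosome 11 from 115158844 to 115168006) ran from 1.81 to 4.63 CPM with saline (median 3.63) and from 4.03 to 11.5 CPM with fluoxetine (median 5.88). The highest value was that of dam 3, and the next was 7.17 CPM. *Fdxr* had a log2 fold change of 0.97 (SE 0.233, unadjusted p = 5.14e-04), and 0.79 (SE 0.206) without dam 3. *Ubn2*, a ubinuclein of histone deposition, was higher by 0.66 (SE 0.165) and 0.59 (SE 0.158), with all 8 dams above the saline median. *Gm43813*, a lncRNA within *Mlxip*, ran from 0.33 to 2.13 CPM with saline and from 0.90 to 18.7 CPM with fluoxetine (log2 fold change 2.53, SE 0.610, and 1.94, SE 0.529, without dam 3). Its spread among fluoxetine-treated dams was wide, and 3 of 8 were above 8 CPM. *Pabpc4*, a cytoplasmic poly(A) binding protein, and *Pold3*, a subunit of DNA polymerase delta, were higher by 0.40 (SE 0.106) and 0.46 (SE 0.120) in 15 libraries. *Rps13*, of the small ribosomal subunit, gave 0.44 (SE 0.113), whereas 81 ribosomal protein genes had a median of 0.04 and 2 of them had unadjusted p ≤ 0.05. These 2 were higher, as were 3.24% of all genes at that p.

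**Figure D4:**
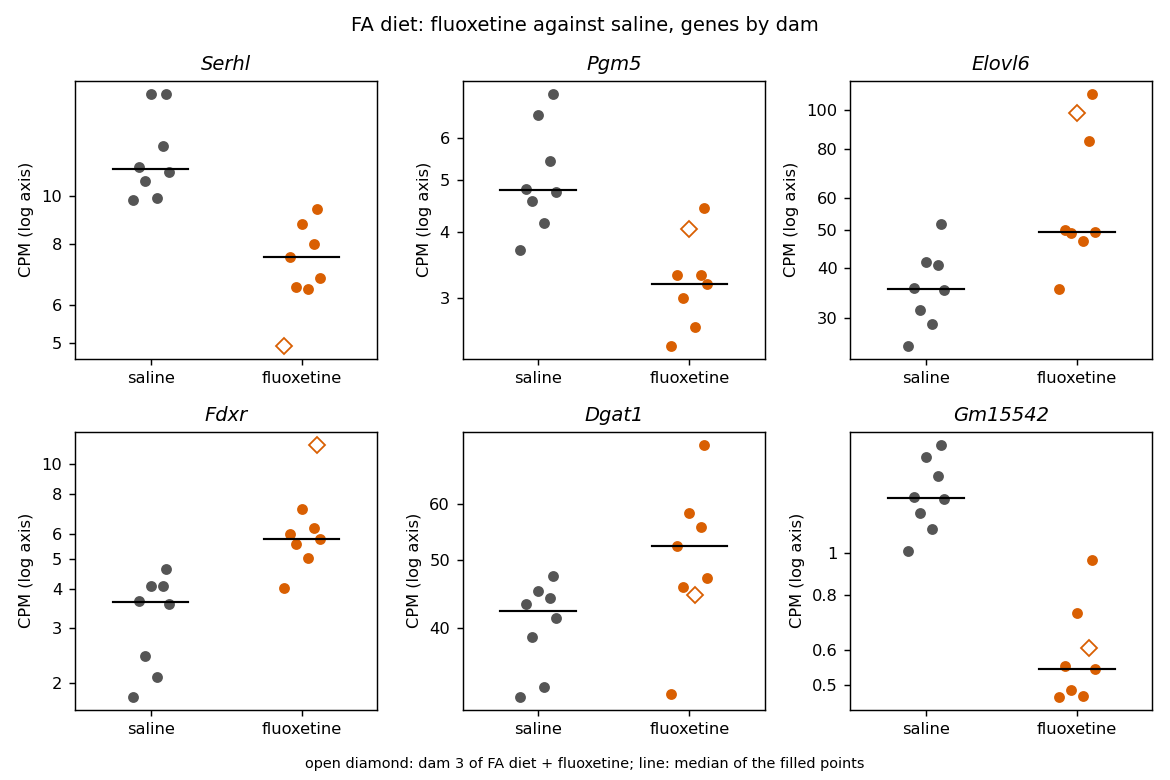
CPM (log axes) of 6 genes in each dam of the FA diet, with lines at the median of the filled points. Serhl and Gm15542 do not overlap between fluoxetine and saline, and 7 of 8 fluoxetine-treated dams lie above the saline median for Elovl6 and Dgat1.

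Milk protein genes had log2 fold changes below 0. Of 10 tested, 10 were so in both fits, with a median of -0.32 in 16 and -0.16 in 15 libraries, beside 0.04 and 0.01 for all genes. Of them, 0 and 1 had unadjusted p ≤ 0.05 by edgeR, where 1.68% and 2.42% of all genes were that low, and 2 did in 15 libraries with the block (3.93% of all genes). The 1 gene was *Csn3* (kappa casein, ENSMUSG00000001622, chromosome 5 from 88073438 to 88080524), which keeps casein micelles soluble. It ran from 32636 to 55393 CPM with saline (median 45350) and from 29225 to 40429 CPM in 7 fluoxetine-treated dams (median 32899), and was 2442 CPM in dam 3. All fluoxetine-treated dams were under the saline median. The log2 fold change was -0.43 (SE 0.135, unadjusted p = 0.00407 by edgeR) without dam 3 and -0.61 (SE 0.358) with it. Dam 3 was left out for its low share of milk protein transcripts. The 15-library counts and p of milk protein genes are therefore descriptions and not a test separate from that choice. *Csn2* (beta casein) was 158833 ± 23109 CPM (SD, n = 7) with fluoxetine and 175137 ± 34019 CPM (SD, n = 8) with saline, and *Wap* (whey acidic protein) was 209678 ± 54470 and 213253 ± 44438 CPM. Their log2 fold changes of -0.14 (SE 0.148) and -0.03 (SE 0.175) lay within the spread between dams. *Lalba*, which turns on lactose synthesis, gave -0.09 (SE 0.210). Of 11 lactose and glucose transport genes, 10 were lower and 0 had unadjusted p ≤ 0.05 by edgeR in either fit. With the block 3 were lower at that p in each, where 2.59% (16 libraries) and 3.93% (15 libraries) of all genes were.

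Among milk fat genes, *Elovl6* lengthens palmitate-sized fatty acids. It ran from 25.5 to 51.6 CPM with saline (median 35.5) and from 35.4 to 110.1 CPM with fluoxetine (median 49.6), and 7 of 8 fluoxetine-treated dams exceeded the saline median. Dams 1, 3 and 6 were highest, at 83.8, 98.5 and 110.1 CPM. For *Elovl6*, the log2 fold change was 0.85 (SE 0.225, unadjusted p = 0.00125) in 16 and 0.74 (SE 0.211) in 15 libraries. *Dgat1* (ENSMUSG00000022555), which closes triglyceride synthesis, ran from 31.9 to 47.4 CPM with saline and from 32.1 to 72.9 CPM with fluoxetine, a log2 fold change of 0.33 (SE 0.150) and 0.36 (SE 0.145). With the block the 16-library value was 0.25 (SE 0.140, unadjusted p = 0.0997). *Slc27a1*, a fatty acid transport protein, was higher by 0.63 (SE 0.247) and, without dam 3, by 0.41 (SE 0.201). *Fasn*, the fatty acid synthase, had the opposite sign, with 3521 ± 998 CPM (SD, n = 8) with saline and 2514 ± 1173 CPM (SD, n = 7) with fluoxetine. Its log2 fold change was -0.49 (SE 0.245, unadjusted p = 0.0594), and -0.56 (SE 0.192, unadjusted p = 0.0108) with the block. *Scd1*, the main desaturase, did not differ beyond its spread (0.00, SE 0.307). Over lists in both fits, 1 of 15 elongases and desaturases (*Elovl6*) and 1 of 9 triglyceride genes (*Dgat1*) were higher with unadjusted p ≤ 0.05 by edgeR. Of all genes tested, 5.44% in 16 and 3.24% in 15 libraries were that high. In either direction, 0 of 13 synthesis genes and 0 of 16 cholesterol genes passed that p. *Lrat*, which stores vitamin A as retinyl ester, ran from 23.5 to 52.2 CPM with saline (median 27.7) and from 11.8 to 24.9 CPM in 7 fluoxetine-treated dams (median 17.1). It was at 0.48 CPM in dam 3. The *Lrat* log2 fold change was -0.81 (SE 0.176, unadjusted p = 1.47e-04) without dam 3. *Slc36a2*, a proton-coupled transporter of small amino acids, was higher by 1.11 (SE 0.372) and 0.89 (SE 0.349), the latter 0.52 (SE 0.281) with the block.

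Serotonin and calcium genes showed few differences. Of 15 genes of serotonin synthesis, transport and breakdown, 10 passed the low-count filter and, without dam 3, 0 had unadjusted p ≤ 0.05 by edgeR. Of 14 serotonin receptors, 1 passed the filter. *Tph1* (ENSMUSG00000040046, chromosome 7 from 46294065 to 46321965), the enzyme that limits serotonin synthesis outside the brain, was 0.61 ± 0.323 CPM (SD, n = 8) with saline and 0.57 ± 0.298 CPM (SD, n = 7) with fluoxetine. Dam 3 was at 12.8 CPM. The log2 fold change was 1.79 (SE 0.769) with dam 3, or 0.49 (SE 0.576) with the block, and -0.11 (SE 0.437) without dam 3. *Itpr1*, an IP3 receptor that releases calcium from the endoplasmic reticulum, was higher by 0.40 (SE 0.187) and 0.34 (SE 0.185), and by 0.50 (SE 0.172, unadjusted p = 0.0102) without dam 3 with the block. *Itpr2* was 49.4 CPM in dam 3 and 8.37 to 14.8 CPM in the other fluoxetine-treated dams, so its 0.63 (SE 0.299) became 0.16 (SE 0.156). *Pthlh*, which encodes the hormone that draws calcium from bone in lactation, ran from 14.8 to 36.3 CPM with saline and from 17.2 to 31.4 CPM with fluoxetine (-0.25, SE 0.179, without dam 3), and was 1.11 CPM in dam 3. *Pth1r*, its receptor, and the calcium channel *Trpv4* were higher by 1.42 (SE 0.528) and 0.96 (SE 0.412) with dam 3, and by 0.54 (SE 0.374) and 0.63 (SE 0.369) without it. With the block and dam 3, their unadjusted p were 0.117 and 0.0753. The calcium pump and channel list had 10 of 14 lower and 0 with unadjusted p ≤ 0.05 without dam 3 by edgeR.

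Few one-carbon genes, which use the supplemented vitamin, differed at an unadjusted p of 0.05. Of 26 tested, 21 were lower in 16 libraries (median -0.22, beside 0.04 for all genes) and 20 in 15 (median -0.15, beside 0.01). In 16 libraries 2 were lower with unadjusted p ≤ 0.05, where 1.68% of all genes were, and in 15 libraries 1 was, where 2.42% of all genes were. With the block these counts were 3 and 2, where 2.59% and 3.93% of all genes were lower at that p. *Atic*, which uses formyl folate to close the purine ring, was 11.8 ± 1.79 CPM (SD, n = 8) with saline and 9.27 ± 1.49 CPM (SD, n = 8) with fluoxetine. Every fluoxetine-treated dam lay under the saline median, and the log2 fold change was -0.35 (SE 0.136) in 16 and -0.39 (SE 0.139) in 15 libraries. *Mthfd2l*, a mitochondrial folate dehydrogenase, gave -0.37 (SE 0.173) and -0.33 (SE 0.174), with an unadjusted p of 0.13 in either when blocked. Of 13 writers, erasers and readers of DNA methylation, 0 had unadjusted p ≤ 0.05 by edgeR, or 1 with the block, with medians of -0.00 and -0.11. The 1 with the block was higher, where 4.65% (16 libraries) and 5.12% (15 libraries) of all genes were at that p.

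Several acute-phase and complement genes, which belong to innate defence, differed between the fits with and without dam 3. *Saa1* (serum amyloid A1) ran from 0.67 to 106 CPM with saline (median 2.66) and from 0.71 to 328 CPM with fluoxetine (median 18.2). The highest values were dam 3 of FA diet + fluoxetine and dam 3 of FA diet + saline, and 7 of 8 fluoxetine-treated dams exceeded the saline median. The *Saa1* log2 fold change was 1.69 (SE 1.25) with and 0.05 (SE 1.10) without dam 3 of FA diet + fluoxetine. With the block they were 2.61 (SE 0.872, unadjusted p = 0.0165) and 2.79 (SE 1.15). For *Saa2*, the unblocked values were 3.02 (SE 1.54) and -0.09 (SE 1.15), and the blocked ones 2.53 (SE 1.08) and 2.12 (SE 1.43). In the blocked 15-library fit, dam 3 of FA diet + saline has no same-numbered partner and adds nothing to these values. Leaving that dam out of the unblocked 15-library fit gave 0.87 for *Saa2*. *Saa3* gave 0.87 without dam 3 of FA diet + fluoxetine, and 2.57 (SE 0.964, unadjusted p = 0.0408) with the block. *C4b*, a complement component of the classical pathway, had 7 of 8 dams above the saline median and gave 0.79 (SE 0.330) and 0.64 (SE 0.347), the latter 0.99 (SE 0.370) with the block. *Slpi*, a protease inhibitor, had 8 of 8 above the saline median, with 0.70 (SE 0.411). The acute-phase list had medians of 0.40 and 0.21, and 0 of 17 had unadjusted p ≤ 0.05 without dam 3 by edgeR. With the block and without dam 3, 4 of 17 were higher and 1 lower at that p (median 0.65), where 5.12% and 3.93% of all genes were. *Lrg1* gave 1.27 (SE 0.582) and 0.71 (SE 0.533), and *Lcn2* (lipocalin 2) gave 0.09 (SE 0.290). The complement list had 11 of 12 higher with dam 3 (median 0.83) and 10 of 12 lower without it (median -0.20), with the block giving -0.024 in 16 libraries. At unadjusted p ≤ 0.05 by edgeR, 3 were lower without dam 3, or 5 with the block, where 2.42% and 3.93% of all genes were. In the same fits 1 and 2 were higher, where 3.24% and 5.12% of all genes were.

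*Igfbp5*, a growth factor binding protein known to be high in involution, rested on dam 3. It ran from 3.06 to 7.64 CPM with saline and from 1.99 to 6.16 CPM in 7 fluoxetine-treated dams, against 387 CPM in dam 3. The *Igfbp5* log2 fold change was 3.07 (SE 1.16) with dam 3, or 0.19 (SE 0.793) with the block, and -0.49 (SE 0.225) without dam 3. Of 19 early involution genes, 12 were higher with dam 3 and 13 lower without it. Without dam 3, the metalloproteases *Mmp2* and *Mmp3*, which cut matrix, were lower, with log2 fold changes of -0.49 and -0.62. Unadjusted p ≤ 0.05 was reached by 3 of the 19 there, all lower, where 2.42% of all genes were that low, and by 0 with the block by edgeR.

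Markers of other cells had few members with unadjusted p ≤ 0.05 in 15 libraries without the block, and more with it for myoepithelial and adipocyte genes. Of 12 myoepithelial genes, 10 were lower in both fits (medians -0.23 and -0.26), and *Acta2* (smooth muscle actin) had -0.44 (SE 0.186) without dam 3. With the block and without dam 3, 6 of 12 were lower with unadjusted p ≤ 0.05, where 3.93% of all genes were. *Krt8*, a luminal keratin, ran from 57.3 to 83.4 CPM with saline and from 51.6 to 65.6 CPM with fluoxetine (-0.27, SE 0.112). Of 13 adipocyte genes, 1 had unadjusted p ≤ 0.05 without dam 3 and 5 did with the block, all lower, where 2.42% and 3.93% of all genes were. Of these 13, 5 were higher without dam 3 and the hormone *Lep* (leptin) was lower, with log2 fold changes of -0.74 (SE 0.324) without and -0.70 (SE 0.299) with dam 3. The former was -0.68 (SE 0.397) with the block. *Fabp4*, the fatty acid binding protein of fat cells, was 692 CPM in dam 3 and 160 to 258 CPM in the other fluoxetine-treated dams. Endothelial genes had 6 of 10 higher and 0 with unadjusted p ≤ 0.05 by edgeR. Skeletal muscle genes summed to between 2.38 and 5473 CPM, and 12 of 14 were lower with 0 at such a p by edgeR. Their 15-library median ranged from -2.91, without fluoxetine dam 10, to 0.046, without saline dam 4. *Pmp22*, a myelin gene that fibroblasts express too, was lower without dam 3, with a log2 fold change of -0.67 (SE 0.186).

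The other lists held few members with unadjusted p ≤ 0.05 in 15 libraries. Of all genes tested there, 3.24% were higher and 2.42% lower at that p, and 5.12% and 3.93% with the block. Interferon-stimulated genes had 14 of 19 lower, or 6 with the block, and 1 higher with such a p, and prolactin and STAT5 genes had 7 of 13 higher, 1 with such a p. Among 19 cell cycle genes, 13 were higher, and *Tk1*, a thymidine kinase, had such a p (0.78, SE 0.283). With the block 17 were higher and 3 had such a p. Their unblocked median ranged from -0.26, without fluoxetine dam 4, to 0.59, without saline dam 3. Among 16 immediate early genes, 9 were higher, and *Atf3*, a stress-induced transcription factor, was lower with such a p (-0.93, SE 0.442), whereas with the block 2 others were higher and 0 lower by edgeR. Amino acid transporters had 8 of 13 higher, with 1 in each direction at such a p. Luminal secretory markers had 8 of 9 lower and 1 with such a p, and nerve markers had 3 of 5 lower and 1 with such a p, *Pmp22*. By edgeR, 0 genes had such a p in either direction among 14 tight junction genes, 19 endoplasmic reticulum chaperones, 11 G protein alpha subunits, 19 clock genes, 13 genes of milk fat globule secretion, 9 B and plasma cell markers and 5 red blood cell markers. With the block, 2 B and plasma cell markers, 1 tight junction gene and 1 chaperone were lower at that p. Of neutrophil markers 1 passed the low-count filter, and of T and NK cell markers 0 did.

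**Figure D5:**
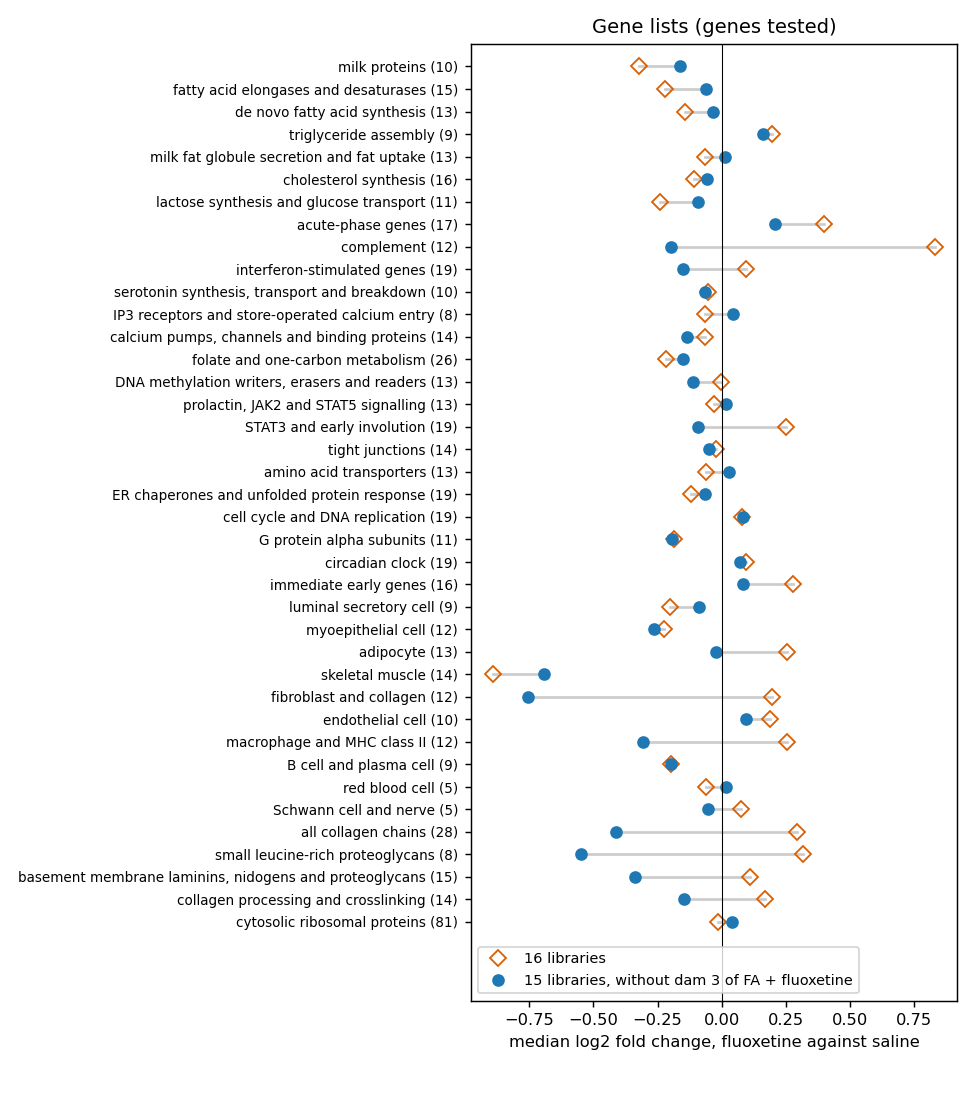
Median log2 fold change of fluoxetine against saline over the genes of each list that were tested, whose number follows the name, with 16 libraries (diamonds) and with 15 libraries without dam 3 of FA diet + fluoxetine (circles). The fibroblast list moves from 0.20 to -0.76 and complement from 0.83 to -0.20, while milk proteins stay below 0 in both.

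Whether these effects differed from those on the breeder diet was tested as an interaction over all 31 libraries. With edgeR, 0 of 14362 genes differed at an FDR of 10%, 552 had unadjusted p ≤ 0.05 (3.84%), and without dam 3 of FA diet + fluoxetine 0 of 14247 and 496 (3.48%). DESeq2 and the likelihood ratio test also called 0 over 31 libraries. Values here are log2 fold changes. *Elovl6* was higher by 0.97 (SE 0.237) on the breeder diet, and the difference between diets was -0.13 (SE 0.328). *Pgm5* was lower (-0.58, SE 0.171) there, with a difference of -0.08 (SE 0.235), and *Dgat1* was higher by 0.37 (SE 0.136). *Serhl* was lower (-0.36, SE 0.152) on the breeder diet, a difference of -0.41 (SE 0.211). *Gm15542* and *Evi2a* had the opposite sign there (0.41, SE 0.312, and 0.41, SE 0.357), with unadjusted p of 0.196 and 0.264 by edgeR. Their differences were -1.59 (SE 0.436) and -1.77 (SE 0.498), while an effect on the breeder diet was not shown for either. Among stromal genes in 30 libraries, the difference was -0.84 (SE 0.300) for *Lum*, -0.71 (SE 0.379) for *Col1a1*, -1.08 (SE 0.398) for *Pdgfra* and -1.02 (SE 0.262) for *Lyz2*. Over 31 libraries these differences were 0.38 (SE 0.624), 0.44 (SE 0.668), 0.04 (SE 0.635) and -0.10 (SE 0.535). For the fibroblast list in 30 libraries, the median difference was -0.59. There 3 of 12 differences were below 0 with unadjusted p ≤ 0.05 by edgeR, where 1.85% of all genes were. *Slpi* and *C4b* were higher by 3.88 (SE 0.854) and 2.23 (SE 0.534) on the breeder diet, and their differences were -3.19 (SE 1.12) and -1.44 (SE 0.723). *Mllt6* was lower on the breeder diet (-0.50, SE 0.193) and higher on the FA diet (0.53, SE 0.225, and 0.26, SE 0.156, without dam 3). Over 31 libraries its difference was 1.01 (SE 0.268). This includes dam 3 of FA diet + fluoxetine, at 34.1 CPM against 16.1 CPM in the next dam of its group. *Gm15542* and *Mllt6* were named in part for the small p of their differences between diets. *Fcamr*, a receptor for IgA and IgM, was higher by 1.07 (SE 0.267) on the FA diet without dam 3, and its difference was 1.57 (SE 0.415) in 30 and 1.42 (SE 0.501) in 31 libraries. None of these differences passed the FDR by edgeR (adjusted p 0.977 and above), so an effect particular to the FA diet was not detectable at this spread between dams.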

How the data were processed

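Gene counts of 31 whole mammary glands, 1 library per dam, were used as deposited. The authors captured polyadenylated RNA, sequenced it, checked and trimmed reads with FastQC 0.11.7 and Trim Galore 0.4.4, aligned them to GRCm39 with HISAT2 and counted reads per gene with HTSeq. The strand option and annotation release are not given in the sources used here, so reads of overlapping genes cannot be told apart. Groups followed the diet and drug labels. They differ from the group sizes in the study's methods by 1 dam in each fluoxetine group.

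Counts were filtered with filterByExpr, scaled by TMM and tested with the robust quasi-likelihood test of edgeR 4.0.16 in R 4.3.3 (12833 genes in 16 libraries, 12921 in 15 and 14362 in 31) at an FDR of 10%, with an unadjusted p of 0.05 for descriptions. Alternatives were the likelihood ratio test, DESeq2 1.42.0, limma 3.58.1 voom, other scalings, filters and robustness settings, a fit of all 4 groups, a block, and leaving out each library. Scripts were tested on simulated data. Gene names and positions came from GENCODE vM39, which matched 54712 of 55379 genes. Promoters came from RefSeq (GRCm38.p6), so their positions are not on the build of the counts. Wilson 95% intervals cover counting error only. Mitochondrially encoded genes were not used here.

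Dam numbers are shared by titles of both groups. Deviations from group means correlated above 0.1 in every same-numbered pair (0.136 to 0.430 over 7 pairs in 16 libraries, 0.179 to 0.454 over 6 pairs in 15), so the numbers were taken to pair dams. This rests on the data and not on a stated litter or batch, and dams without a partner add nothing to the blocked effect. In 16 libraries, the saline-treated dam most correlated with a fluoxetine-treated dam had the same number in 6 of 7 pairs, all but dam 3. In 15 libraries it had in 5 of 6, all but dam 2. Libraries of a group differed beyond sampling noise (lowest chi-square per gene 26.7), so each counted as 1 dam. Nothing states whether dams were handled in separate batches, and p-values measure the spread between these dams.

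The members and lists were chosen with earlier results of these data known. There were 39 lists, and 5 more were added after seeing the data. Named genes were those past the FDR, the 8 of smallest p in each direction in each fit, list members with an unadjusted p of 0.05 or below (at most 4 a list) or of highest mean CPM (2 a list), genes that earlier results turned on, and the 3 of smallest p for the difference between diets. Genes outside this rule are marked as named after their values were seen.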

Additional observations from a re-analysis of the deposited data

Results flagged for a closer look

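In 40 of 128 groups of 8 dams, 1 dam stood apart from the rest: its gap to the nearest other dam, divided by the range of the group, was above Dixon's critical value at 95%. The genes were chosen with these data known and their CPM were not put on a log scale, so no chance rate can be set beside the 40. Dam 3 of FA diet + fluoxetine was the dam apart in 28 of the 40 groups. It was the highest of its group for genes of stroma, macrophages and fat cells, with *Optc* at 1.29 CPM, *Fabp4* at 692 CPM, *Lum* at 35.5 CPM, *Col1a1* at 171 CPM, *Col1a2* at 223 CPM, *Col3a1* at 286 CPM, *Pdgfra* at 16.6 CPM, *Spon1* at 14.1 CPM, *Lyz2* at 87.2 CPM, *H2-Aa* at 73.5 CPM, *H2-Eb1* at 87.5 CPM and *Pmp22* at 13.1 CPM. It was also highest with *Fdxr* at 11.5 CPM, *Tph1* at 12.8 CPM, *Pth1r* at 9.11 CPM, *Itpr2* at 49.4 CPM, *Saa1* at 328 CPM, *Saa2* at 314 CPM, *Lrg1* at 44.5 CPM, *Igfbp5* at 387 CPM, *Mllt6* at 34.1 CPM, *Rbms2* at 18.5 CPM and *Pabpc4* at 102 CPM. It was lowest with *Pthlh* at 1.11 CPM, *Csn2* at 13860 CPM, *Csn1s1* at 11027 CPM, *Csn1s2a* at 12400 CPM and *Csn3* at 2442 CPM. All of these share 1 library, so they are not separate observations.

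Dam 3 of FA diet + saline stood apart in 7 groups. It was highest with *Saa1* at 106 CPM, *Slpi* at 12.8 CPM, *Orm2* at 43.3 CPM, *Saa3* at 16.8 CPM and *Lrat* at 52.2 CPM, and lowest with *Csn1s2b* at 31425 CPM and *Wap* at 120985 CPM. Dam 5 of FA diet + saline stood apart in 3 groups, with *Atic* at 7.83 CPM, *Mllt6* at 17.7 CPM and *Slc27a1* at 59.3 CPM. Dam 11 of FA diet + saline stood apart in 2, with *Lum* at 8.07 CPM and *Col1a1* at 56.8 CPM. What sets these dams apart was not tested.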

How the results depend on the processing

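The 16-library count at an FDR of 10% was 0 by edgeR and 5 by DESeq2, which imputes outlying counts of dam 3. The 15-library count was 0 by edgeR, 14 by DESeq2, 1 by the likelihood ratio test and 2 with the replicate block. The 16-library count at an unadjusted p of 0.01 or below (150) became 328 in the fit of all 4 groups, 243 by DESeq2, 547 with every counted gene and 308 by limma voom, and that at 0.05 or below (913) became 1434 in the fit of all 4 groups and 3464 with every counted gene. The 15-library counts (139 and 731) became 468 and 2958 with every counted gene, 275 and 1191 by limma voom, and 349 and 1169 with the block. For the difference between diets, 78 genes at 0.01 or below became 121 by DESeq2 and 47 with the block. With the block, 16-library medians turned from 0.83 to -0.024 for complement, 0.20 to -0.30 for fibroblast genes, 0.29 to -0.081 for collagens, 0.32 to -0.22 for proteoglycans, 0.11 to -0.051 for basement membrane, 0.17 to -0.145 for collagen processing, 0.26 to -0.145 for macrophage genes, 0.25 to -0.115 for adipocyte genes and 0.25 to -0.013 for early involution genes. Medians of further lists nearer 0 turned in either fit, and blocked counts of list members at an unadjusted p of 0.05 or below are given with the lists they moved most. The cause of these shifts was not tested.

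In 16 libraries *Tph1* turned to -0.11 by DESeq2 and -0.056 by limma voom, and *Igfbp5* to -0.45 and -0.31. By DESeq2, limma voom and the block in that order, *Lum* turned to -0.75, -0.79 and -0.32, *Col1a1* to -0.87, -0.98 and -0.40, *Col1a2* to -0.75, -0.92 and -0.35, *Col3a1* to -0.82, -1.06 and -0.42, *Pdgfra* to -0.91, -0.85 and -0.38, *Spon1* to -1.01, -1.11 and -0.70, and *Lyz2* to -0.48, -0.54 and -0.24. *Col3a1*, near 0, also turned to -0.026 in the fit of all 4 groups, -0.023 with RLE scaling, -0.053 with every counted gene and -0.019 without the 20 most abundant genes. In 15 libraries *Saa2* turned to 0.65 by limma voom and 2.12 with the block. *Scd1*, also near 0, turned to -0.010 by DESeq2, -0.010 with RLE scaling, -0.015 with at least 1 CPM in 7 libraries, -0.0079 with every counted gene, -0.14 by limma voom, -0.0079 with upper quartile scaling and -0.014 without the 20 most abundant genes. Of 1300 such values of single genes, over both fits and settings that kept all their libraries, 1246 kept direction and side of the FDR threshold, 16 passed it newly and these 38 turned. Under other scalings the fibroblast median without dam 3 was between -0.77 and -0.76.

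Leaving out 1 library gave 0 to 0 genes at the FDR in both fits by edgeR, 70 to 302 and 606 to 1397 genes in 16 libraries, and 92 to 286 and 539 to 1192 in 15, at 0.01 and 0.05. Dams that moved these 16-library counts by over 1.5 times were fluoxetine dam 2 (302 and 1397) and saline dams 1 (76), 2 (70 and 606), 4 (76), 5 (288) and 11 (90). In 15 libraries they were fluoxetine dam 2 (255 and 1192) and saline dams 1 (92) and 5 (286 and 1187). The difference between diets gave 73 and 496 without dam 3. List medians ranged from -0.76 to 0.39 for fibroblast genes, -0.41 to 0.44 for collagens, -0.55 to 0.43 for proteoglycans, -0.34 to 0.235 for basement membrane and -0.20 to 0.95 for complement, with the low ends without dam 3. Triglyceride genes ranged from -0.012 (without fluoxetine dam 5) to 0.355. In 15 libraries nerve markers ranged from -0.082 to 0.34 (without fluoxetine dam 2). Other list medians near 0 turned as well, among them cell cycle (-0.27 to 0.53 in 16 libraries). Gene values that turned in 16 libraries ranged from -0.11 to 1.98 for *Tph1*, -0.087 to 3.98 for *Saa2*, -0.35 to 0.084 for *Scd1*, -0.49 to 3.25 for *Igfbp5*, -0.019 to 0.22 for *Lcn2*, -0.82 to 0.54 for *Lum*, -0.93 to 0.44 for *Col1a1*, -0.80 to 0.48 for *Col1a2*, -0.88 to 0.19 for *Col3a1*, -0.99 to 0.31 for *Pdgfra*, -1.11 to 0.45 for *Spon1*, -0.52 to 0.54 for *Lyz2* and -0.31 to 0.013 for *H2-Eb1*. In 15 libraries they ranged from -0.49 to 1.94 for *Saa1*, -0.71 to 0.87 for *Saa2*, -0.30 to 0.14 for *Scd1*, -0.34 to 0.084 for *Tph1* and -0.12 to 0.053 for *Wap*.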
